A study of Mus musculus with 6 samples.

Results

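The FOS, JUN, EGR and NR4A immediate early genes were measured in naive CD4+ T cells of wild-type C57BL6/J mice, isolated from spleen. The members were the 10 genes Fos, Fosb, Jun, Junb, Jund, Egr1, Egr2, Egr3, Nr4a1 and Nr4a3. They were chosen by name from 55487 genes in the deposited tables, with earlier results of these data known. All 10 passed the filter on low counts that left 11950 genes tested. Poly(A) RNA was sequenced in 3 libraries from mice treated in vivo with rapamycin, an inhibitor of the kinase mTOR, and 3 from mice that received no treatment. All mice carried the wild-type genotype, and the dose, the duration of treatment, the age of the mice and whether a library came from 1 mouse or several are not given in the sources used here. The comparison asks how in vivo rapamycin changes these transcription factor genes; the labels name no stimulus.

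Immediate early genes are transcribed within minutes of a stimulus from factors that are already present in the cell, such as SRF with its ternary complex partners, CREB and MEF2. FOS and JUN proteins pair through leucine zippers to form the transcription factor AP-1. EGR proteins bind DNA through zinc fingers, and NR4A proteins are orphan nuclear receptors. In T cells these genes respond to the T cell receptor: Nr4a1 and Egr2 are widely used as readouts of receptor signal, including the weak tonic signal from self ligands, and Egr2, Egr3 and the NR4A factors are known for restraining activation.

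6 of the 10 genes rose with rapamycin, 1 fell and 3 were not called. The rise was largest for Nr4a3, 1.94-fold, followed by Egr2 (1.48-fold), Nr4a1 (1.47-fold), Egr1 (1.34-fold), Jun (1.22-fold) and Fos (1.19-fold). Jund, the JUN gene that is typically expressed without a stimulus, fell to 0.912 of its level in untreated mice, a call that was not kept with a length correction or on either TPM scale. Fosb, Junb and Egr3 did not pass the threshold. Calls are from edgeR's quasi-likelihood test with a Benjamini-Hochberg adjusted p under 0.05 over all genes tested, and in the same test 24.1% of all genes rose and 23.3% fell, 47.4% in either direction. The median log2 fold change was 0.27 over the 10 members and -0.01 over all genes tested.

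The total expected count lay between 8757280 and 9315370 in rapamycin libraries and between 9712671 and 11393317 in untreated libraries, and each member had at least 101 counts in each library. Levels below are CPM, counts scaled to a common library size with TMM factors, as mean ± SD (n = 3 libraries a group). Each log2 fold change is that of rapamycin relative to untreated libraries and carries its SE. Log2 fold changes in these libraries moved with transcript length: the median was -0.31 over the 993 shortest of the 9925 well-measured genes (up to 1069 bases) and 0.25 over the 993 longest (from 5093 bases), so a length-corrected value is given for each member. T cell markers were high in both groups, at a summed 6771 to 6846 CPM over 10 genes with rapamycin and 6848 to 6921 CPM without, and Cd4 was at 687 ± 9.29 CPM in rapamycin libraries and 716 ± 11.6 CPM in untreated libraries. In bulk RNA a change in how many cells express a gene and a change in RNA per cell cannot be told apart.

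Promoter sequence shows one feature of these genes that the counts do not. The RefSeq table (GRCm38.p6, the assembly that mm10 names) held windows of 300 bases, 250 before and 50 after a start site. Windows of 8 of the 10 members were searched: Egr1, which rose, was left out because of its chromosome, and Egr3 had no window. Of the 8 members, 6 are printed: 5 of the genes that rose and Junb, which was not called. The sequences show how the NR4A windows differ from the rest in one motif. Capitals mark TGACG on either strand (the core of the cAMP response element that CREB binds), TGACNTCA and the CArG box that SRF binds.
Nr4a3, chr4:48045055-48045354, plus strand: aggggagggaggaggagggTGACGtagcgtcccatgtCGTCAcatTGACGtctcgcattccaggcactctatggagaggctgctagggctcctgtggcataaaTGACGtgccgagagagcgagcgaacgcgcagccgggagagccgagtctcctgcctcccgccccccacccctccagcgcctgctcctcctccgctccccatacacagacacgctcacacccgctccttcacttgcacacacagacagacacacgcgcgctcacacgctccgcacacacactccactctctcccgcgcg
Nr4a1, chr15:101266596-101266895, plus strand: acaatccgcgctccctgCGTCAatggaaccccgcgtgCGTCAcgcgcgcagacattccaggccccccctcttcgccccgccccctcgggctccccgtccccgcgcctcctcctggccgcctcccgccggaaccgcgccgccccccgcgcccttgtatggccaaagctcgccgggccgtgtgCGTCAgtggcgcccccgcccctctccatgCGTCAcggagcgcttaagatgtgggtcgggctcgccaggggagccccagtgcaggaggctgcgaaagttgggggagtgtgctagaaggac
Egr2, chr10:67537619-67537918, plus strand: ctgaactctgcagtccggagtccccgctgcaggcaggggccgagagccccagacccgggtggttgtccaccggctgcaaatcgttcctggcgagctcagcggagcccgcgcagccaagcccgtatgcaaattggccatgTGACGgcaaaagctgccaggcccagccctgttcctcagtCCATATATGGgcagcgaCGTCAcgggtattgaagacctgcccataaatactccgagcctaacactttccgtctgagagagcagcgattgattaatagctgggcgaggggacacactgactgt
Fos, chr12:85473640-85473939, plus strand: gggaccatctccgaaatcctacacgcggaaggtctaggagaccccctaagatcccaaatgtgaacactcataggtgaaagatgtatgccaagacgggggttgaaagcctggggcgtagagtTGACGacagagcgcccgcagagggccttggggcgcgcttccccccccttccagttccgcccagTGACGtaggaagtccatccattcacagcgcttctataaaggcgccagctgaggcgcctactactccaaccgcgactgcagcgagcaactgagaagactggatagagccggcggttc
Jun, chr4:95052173-95052472, minus strand: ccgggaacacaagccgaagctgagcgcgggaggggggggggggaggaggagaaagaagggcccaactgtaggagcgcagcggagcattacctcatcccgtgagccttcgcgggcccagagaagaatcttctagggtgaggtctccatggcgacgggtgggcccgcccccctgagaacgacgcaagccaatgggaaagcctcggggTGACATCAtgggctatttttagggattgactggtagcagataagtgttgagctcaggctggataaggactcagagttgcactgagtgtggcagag
Junb, chr8:84978699-84978998, minus strand: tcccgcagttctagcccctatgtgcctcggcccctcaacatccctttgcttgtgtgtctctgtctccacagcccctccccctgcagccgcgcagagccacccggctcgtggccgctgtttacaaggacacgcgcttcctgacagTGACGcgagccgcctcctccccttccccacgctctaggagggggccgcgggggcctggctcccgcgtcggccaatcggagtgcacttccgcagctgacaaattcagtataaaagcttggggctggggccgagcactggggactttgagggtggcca
Both NR4A windows held 4 copies of TGACG, and 0.231% of the 32851 windows in the table held at least 4. The Fos window and the printed Egr2 window held 2 (at least 2 in 5.01% of windows), Fosb and Junb 1 each (at least 1 in 20.8%), and Jun and Jund none. These cutoffs are the members' own counts, and windows in the table can overlap, so the shares are a description and not a test. Jun had in its place TGACATCA, the AP-1-like site of its own promoter, a match to TGACNTCA, which 8.83% of windows contain. The Egr2 window held the CArG box CCATATATGG (1.63% of windows hold one). The EGR element GCGNGGGCG was found in the Nr4a1 and Fosb windows and in 5.55% of all windows. TGANTCA and the NR4A element AAAGGTCA, searched on both strands, matched none of the windows searched for these 8 members, and 7.81% and 1.51% of all windows. A TGACG can lie inside a TGACNTCA. The windows sit at RefSeq start sites: that of Nr4a1 lies 12577 bases inside the GENCODE gene, and the start site of the Jund window lies 1210 bases upstream of the GENCODE gene. The printed Egr2 window, whose start site lies 2394 bases inside the gene, is one of 5, chosen for having the most TGACG. Of the other Egr2 windows, 2 overlap it and 2 hold no TGACG, and the one nearest the GENCODE start (24 bases away) held none of the motifs. A match is a description of the sequence and says nothing of what bound there.

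**Figure D1:**
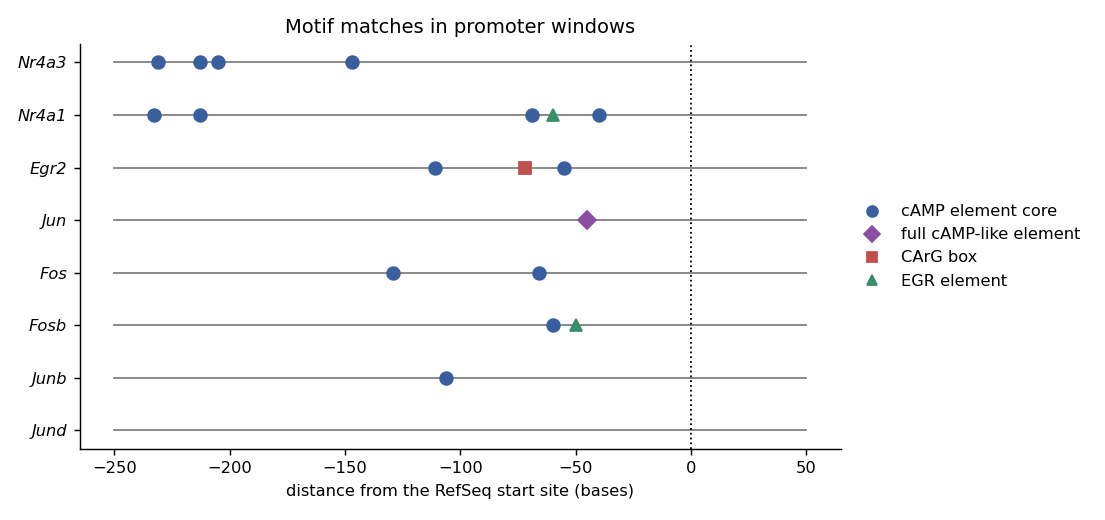
Motif matches in the promoter windows of 8 members, by distance in bases from the RefSeq start site (dotted line). Circles are TGACG, diamonds TGACNTCA, squares CArG boxes and triangles GCGNGGGCG; the Nr4a3 and Nr4a1 windows hold 4 circles each and the Jund window holds no match.

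Among the nuclear receptors, Nr4a3 (ENSMUSG00000028341, mm10 chromosome 4, 48045153 to 48086447, plus strand) had 27.3, 26.1 and 28.7 CPM in rapamycin libraries, against 14.6, 14.5 and 13.3 CPM in untreated libraries. The lowest rapamycin library was well above the highest untreated library. The means were 27.4 ± 1.34 CPM with rapamycin and 14.1 ± 0.689 CPM without, a log2 fold change of 0.95 ± 0.10 (edgeR adjusted p = 9.0e-12; length-corrected 0.77), which ranked 220 from the top of the 11950 genes tested. Nr4a1 (ENSMUSG00000023034, mm10 chromosome 15, 101254269 to 101274795, plus strand), the gene of the receptor NUR77, had 332, 325 and 327 CPM in rapamycin libraries, against 228, 226 and 216 CPM in untreated libraries. The groups were apart by more than the spread within either. Its means were 328 ± 3.53 CPM with rapamycin and 223 ± 6.70 CPM without, a log2 fold change of 0.55 ± 0.03 (edgeR adjusted p = 9.5e-25; length-corrected 0.61). Within a library, Nr4a3 made up 7.71 ± 0.336% of the counts of both genes in rapamycin libraries and 5.94 ± 0.110% in untreated libraries, with every rapamycin library higher (exact two-sided permutation p = 0.1, the smallest that 3 against 3 libraries can give). By TPM, the deposited level scaled for effective transcript length, the share was 3.03 ± 0.232% with rapamycin and 2.27 ± 0.552% without, and the groups overlapped (exact permutation p = 0.2). RSEM's length for Nr4a3 varied between libraries, at 3812.5 to 5556.2 bases, and TPM varies with it.

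Among the zinc finger genes, Egr1 (ENSMUSG00000038418, mm10 chromosome 18, 34859823 to 34864984, plus strand) had 99.9, 101 and 95.1 CPM in rapamycin libraries, against 76.3, 70.2 and 74.7 CPM in untreated libraries. The groups did not overlap, and the means of 98.7 ± 3.11 CPM with rapamycin and 73.7 ± 3.17 CPM without gave a log2 fold change of 0.42 ± 0.05 (edgeR adjusted p = 1.7e-10; length-corrected 0.35). Egr2 (ENSMUSG00000037868, mm10 chromosome 10, 67535475 to 67542188, plus strand) had 17.3, 17.1 and 17.1 CPM in rapamycin libraries, against 13.5, 9.61 and 11.5 CPM in untreated libraries. The untreated libraries were spread widely, but all lay below the rapamycin ones. The means were 17.2 ± 0.062 CPM with rapamycin and 11.5 ± 1.96 CPM without, a log2 fold change of 0.57 ± 0.13 (edgeR adjusted p = 1.4e-04; length-corrected 0.55). Egr3 (ENSMUSG00000033730, mm10 chromosome 14, 70077203 to 70082614, plus strand), an EGR gene that acts with Egr2 in T cells, had 41.8, 40.3 and 41.4 CPM in rapamycin libraries, against 35.4, 37.6 and 37.0 CPM in untreated libraries. These groups did not overlap either, but the log2 fold change of 0.17 ± 0.07 missed the threshold with an edgeR adjusted p of 0.0503. It was called with RLE factors (adjusted p = 0.0449), with limma-voom (adjusted p = 0.0468) and with a stricter filter (adjusted p = 0.0495), and its adjusted p ranged up to 0.473, the value with the length correction, where the log2 fold change was 0.07. Of the summed counts of the EGR genes, Egr3 took 26.2 ± 0.752% with rapamycin and 30.1 ± 1.88% without, lower in every rapamycin library (exact two-sided permutation p = 0.1); by TPM the groups overlapped. Nab2, a corepressor gene that EGR factors induce, rose by 0.32 ± 0.05 on the log2 scale (edgeR adjusted p = 5.4e-07) and was picked for mention after its value was seen.

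Among the FOS genes, Fos (ENSMUSG00000021250, mm10 chromosome 12, 85473890 to 85477273, plus strand) had 445, 446 and 443 CPM in rapamycin libraries, against 380.3, 360.3 and 379 CPM in untreated libraries. The 3 rapamycin libraries were nearly equal and all above the untreated ones. The means of 445 ± 1.11 CPM with rapamycin and 373 ± 11.04 CPM without gave a log2 fold change of 0.25 ± 0.03 (edgeR adjusted p = 7.1e-13; length-corrected 0.32). Fosb (ENSMUSG00000003545, mm10 chromosome 7, 19302696 to 19310051, minus strand), whose protein shares the role of FOS as a partner of JUN proteins, had 73.9, 71.9 and 77.3 CPM in rapamycin libraries, against 70.1, 69.2 and 69.9 CPM in untreated libraries. The groups did not overlap, but the log2 fold change was 0.09 ± 0.05 (edgeR adjusted p = 0.154), and -0.0037 with the length correction. Within the FOS pair, Fos took 92.7 ± 0.239% of the TPM of both genes in rapamycin libraries and 91.7 ± 0.160% in untreated libraries, with no overlap (exact two-sided permutation p = 0.1).

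Among the JUN genes, Jun (ENSMUSG00000052684, mm10 chromosome 4, 95049034 to 95052222, minus strand) had 508, 482 and 496 CPM in rapamycin libraries, against 407, 404.8 and 404.8 CPM in untreated libraries. The untreated libraries were nearly equal and all below the rapamycin ones. The means of 495 ± 13.4 CPM with rapamycin and 405.5 ± 1.13 CPM without gave a log2 fold change of 0.29 ± 0.02 (edgeR adjusted p = 1.3e-15; length-corrected 0.23). Junb (ENSMUSG00000052837, mm10 chromosome 8, 84974484 to 84978718, minus strand), whose protein is a weaker activator than JUN in many settings, had 814, 817 and 808 CPM in rapamycin libraries, against 866, 804 and 829 CPM in untreated libraries. The groups overlapped, with a log2 fold change of -0.04 ± 0.02 (edgeR adjusted p = 0.162) that turned to 0.04 with the length correction and 0.07 on log2(TPM + 1). Junb was called lower without untreated replicate 2, at -0.06 (adjusted p = 0.0106, against a range of 0.00135 to 0.705 over all alternatives). Jund (ENSMUSG00000071076, mm10 chromosome 8, 70698949 to 70700616, plus strand) had 600.0, 545 and 558 CPM in rapamycin libraries, against 630.3, 604 and 634 CPM in untreated libraries. Every rapamycin library was below every untreated one, by a margin smaller than the spread within the rapamycin group. Its log2 fold change of -0.13 ± 0.03 (edgeR adjusted p = 3.5e-04) became -0.04 with the length correction (adjusted p = 0.283) and -0.03 on log2(TPM + 1) (adjusted p = 0.587), and neither was called. Over all alternatives its adjusted p ranged from 1.9e-08 to 0.587.

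**Figure D2:**
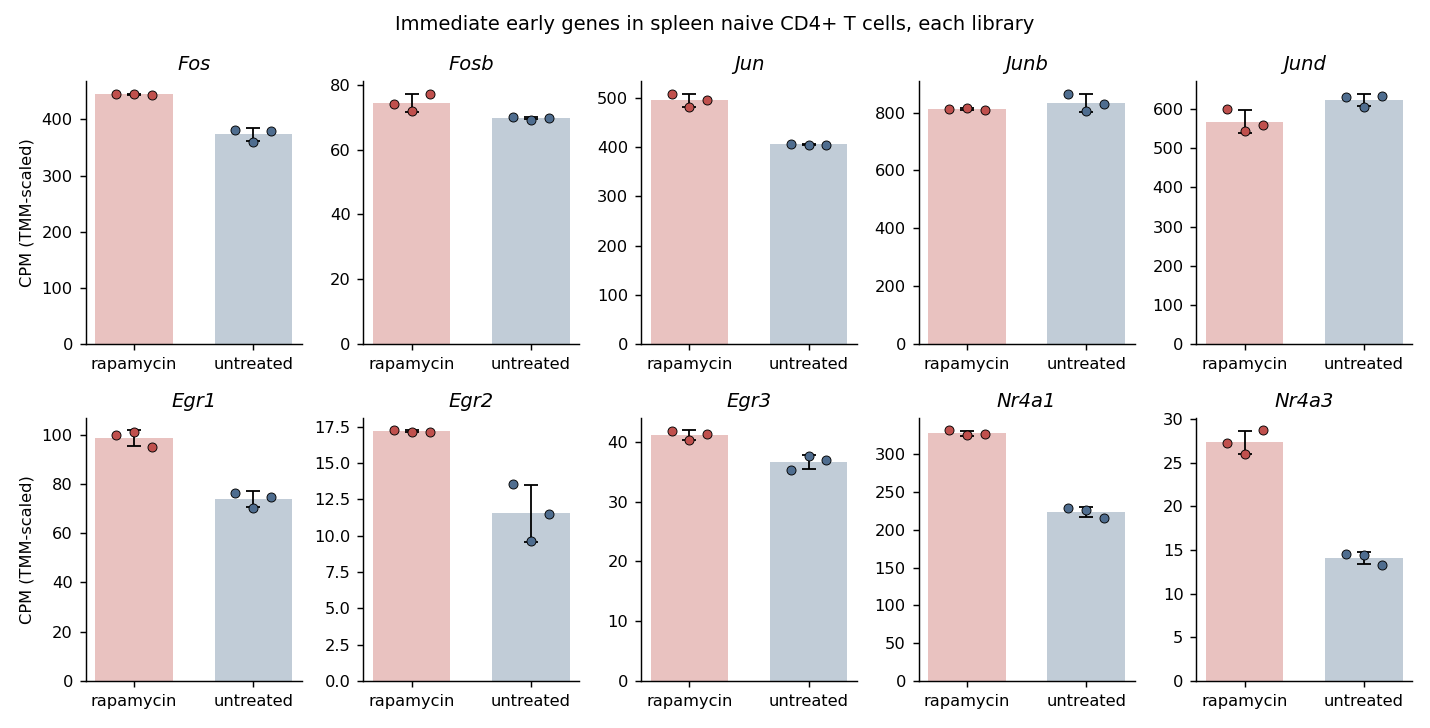
CPM of each of the 10 genes, with 1 point per library, bars at the group mean and error bars of 1 SD (n = 3 libraries a group, rapamycin in red and untreated in blue, y axes from 0). The groups are apart in each panel except Junb, with Nr4a3 at 27.4 CPM with rapamycin and 14.1 CPM without showing the widest gap relative to its level.

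By CPM all rapamycin libraries lay above all untreated libraries for 8 of the 10 genes and below them for 1, while over all genes tested 26.9% were above and 26.8% below in this way (53.8% in either). With the length correction 6 members were higher and 0 lower, where 20.2% of all genes tested were higher and 18.3% lower (38.5% in either direction). In limma's test on log2(TPM + 1) 6 members were again higher and 0 lower, where 22.8% of all genes were higher and 9.63% lower (32.4% in either direction) and the median of all genes was shifted by 0.09. The log2(TPM + 1) change was 0.91 for Nr4a3, 0.67 for Egr2, 0.61 for Nr4a1, 0.47 for Egr1, 0.39 for Fos and 0.38 for Jun, each past the threshold. The rises of Nr4a3, Egr2, Nr4a1, Egr1, Jun and Fos were called in all 18 alternatives run.

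**Figure D3:**
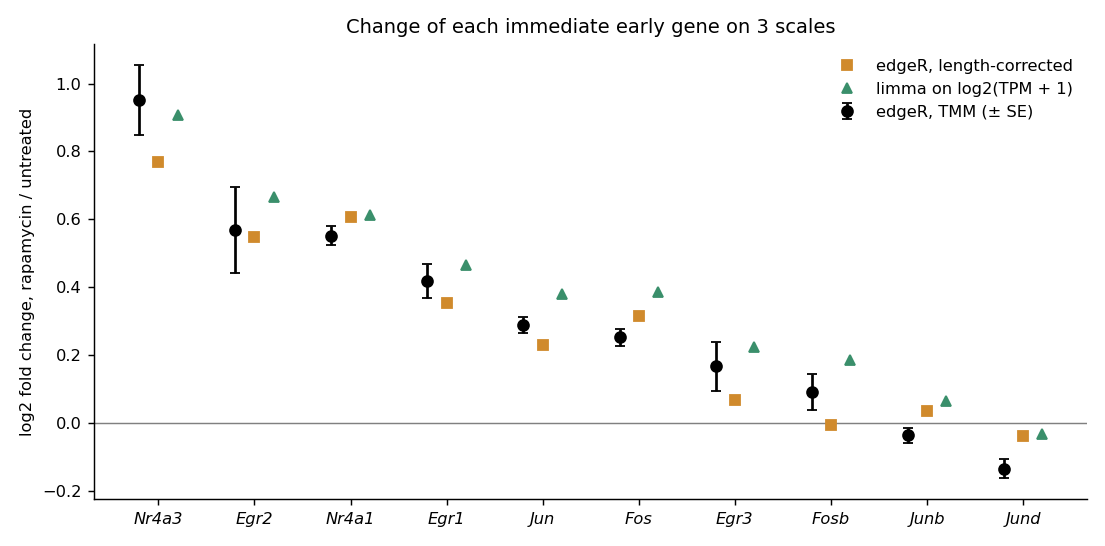
Log2 fold change (y axis, rapamycin over untreated) of each member under edgeR with TMM scaling (black, ± SE), edgeR with a length correction (orange) and limma on log2(TPM + 1) (green). Nr4a3, Egr2, Nr4a1, Egr1, Jun and Fos lie above 0 on each scale, while Junb and Fosb cross 0 and Jund moves between -0.13 and -0.03.

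Levels can be set side by side between genes as TPM, which is scaled for length. In rapamycin libraries Junb was highest at 731 ± 2.25 TPM, followed by Jund at 562 ± 28.8, Fos at 390.3 ± 4.68, Nr4a1 at 270.5 ± 3.67 and Jun at 236 ± 6.485 TPM. In untreated libraries Junb had 698.5 ± 25.5, Jund 574 ± 14.5, Fos 298 ± 6.20, Jun 181 ± 0.501 and Nr4a1 176 ± 2.53 TPM, so that Jun and Nr4a1 stood in the reverse order by TPM. Their untreated levels were close, and RSEM's mean length was 3189 bases for Jun and 1927.5 for Nr4a1. By CPM, not scaled for length, the mean of Jun was above that of Nr4a1 in both groups. The other 5 genes kept their order: Egr1 had 45.0 ± 1.72 TPM with rapamycin and 32.3 ± 1.11 without, Fosb 30.7 ± 1.34 and 26.8 ± 0.225, Egr3 16.7 ± 0.851 and 14.1 ± 0.586, Egr2 10.01 ± 1.98 and 5.94 ± 1.12, and Nr4a3 8.46 ± 0.757 and 4.10 ± 1.08. Neighbours in the order were apart in each group except Egr2 and Nr4a3, whose libraries overlapped in both. The sum over the 10 genes was 2301 ± 35.1 TPM with rapamycin and 2011 ± 43.2 TPM without (exact two-sided permutation p = 0.1).

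Shares within a library do not depend on library size factors, though genes of different length keep the length trend in them, and with 3 libraries a group no share could reach a p under 0.05. Jun took 15.4 ± 0.153% of the TPM of Jun, Junb and Jund in rapamycin libraries and 12.45 ± 0.309% in untreated libraries, and every rapamycin library was higher (exact two-sided permutation p = 0.1). Jund took 36.7 ± 1.04% with rapamycin and 39.5 ± 0.493% without, and every rapamycin library was lower (exact permutation p = 0.1). Junb took 47.8 ± 1.10% with rapamycin and 48.1 ± 0.626% without, with overlapping groups. The summed level of the JUN genes was 1876 ± 41.1 CPM with rapamycin and 1861 ± 45.1 CPM without, overlapping between groups. By TPM the sum was 1529 ± 34.9 with rapamycin and 1453 ± 37.7 without, higher in every rapamycin library (exact two-sided permutation p = 0.1). The ratio of FOS genes to JUN genes by TPM was 0.275 ± 0.00837 with rapamycin and 0.224 ± 0.00166 without, higher in every rapamycin library (exact permutation p = 0.1).

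**Figure D4:**
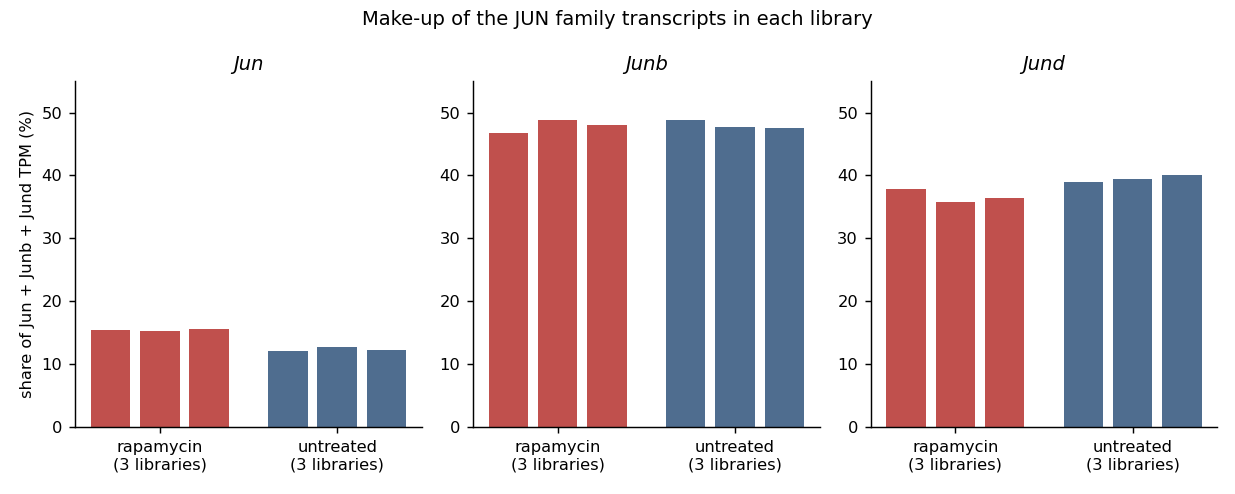
Share of each JUN gene in the summed TPM of Jun, Junb and Jund (y axis, percent), with 1 bar per library, rapamycin in red and untreated in blue. Jun bars average 15.4% with rapamycin and 12.45% without, Jund bars 36.7% and 39.5%, and Junb bars overlap.

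Libraries of a group differed little in these genes. The coefficient of variation of CPM was at most 5.07% in the rapamycin group, and in the untreated group at most 4.88% except for Egr2 at 17.0%. Untreated replicate 2 had the lowest value of its group for 7 of the 10 genes, and rapamycin replicate 2 likewise for 7. Variance between libraries was 8.82 times counting noise for Jund and 6.37 times for Junb, averaged over the groups, and at most 1.82 times for the other 8 genes. Genes with at least 100 counts in every library had a mean of 1.81 and a median of 1.31. The average hides unequal groups: Egr2 and Fos were at 3.65 and 3.48 in untreated libraries but 0.0020 and 0.024 in rapamycin libraries. Jun was at 3.25 in rapamycin libraries and 0.035 in untreated libraries. The labels do not say that libraries came from separate mice, and the p-values therefore rest on library-to-library spread that may be partly technical. Junb shares 173 exonic bases with Prdx2 on the opposite strand, Jund 877 with Gm11175 and Jun 232 with Junos. The library kit keeps strand, but whether the counting used it is not given in the sources used here; Gm11175 and Junos held at most 22.5 and 7.20 counts in a library and Prdx2 at most 688.

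Relatives of the 10 genes were mostly scarce. Of 11 other AP-1, EGR, NR4A and small MAF genes, 6 passed the filter, 3 rose and 1 fell, where 24.1% of all genes tested rose and 23.3% fell. Mafg and Maff, small MAF genes whose proteins lack an activation domain, rose by 0.64 ± 0.09 (edgeR adjusted p = 1.8e-08) and 1.32 ± 0.26 (adjusted p = 1.8e-05) on the log2 scale. Maff was low throughout, at 5.34 CPM with rapamycin and 2.12 CPM without. Mafk rose by 0.15 ± 0.06 (edgeR adjusted p = 0.0186), a call lost in 9 of 18 alternatives, among them those without rapamycin replicate 1 (0.11, adjusted p = 0.148) and without untreated replicate 2 (0.12, adjusted p = 0.126); its adjusted p ranged from 0.0060 to 0.276. Fosl2, a FOS relative, fell to 9.88 ± 0.858 CPM in rapamycin libraries, against 14.0 ± 1.44 CPM in untreated libraries, a log2 fold change of -0.50 ± 0.14 (edgeR adjusted p = 0.0018) that was not called on log2(TPM + 1). Egr4 had 0 counts in each library, where 3 counts would be 0.263 to 0.343 CPM. With the length correction 4 relatives were higher and 1 lower (20.2% and 18.3% of all genes tested). On log2(TPM + 1) 3 were higher and 0 lower (22.8% and 9.63%). Batf, picked for mention after its value was seen, was not called in the main test (0.13, edgeR adjusted p = 0.22). It was called higher with the length correction (0.39, edgeR adjusted p = 1.9e-04) and on log2(TPM + 1) (0.29, limma adjusted p = 0.0185).

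Upstream regulators and other immediate early genes moved in both directions. Of 28 genes for factors and kinases that act on these promoters, 13 rose and 4 fell, with a median of 0.12. With the length correction 7 rose and 3 fell, with a median of 0.03, and on log2(TPM + 1) 9 rose and 1 fell. Of all genes tested 24.1% rose and 23.3% fell in the main test. These shares were 20.2% and 18.3% with the length correction, and 22.8% and 9.63% on log2(TPM + 1). Mrtfa, a coactivator gene of SRF, rose by 0.58 ± 0.03, Mef2d, a factor gene that acts on Nr4a1, by 0.42 ± 0.03, and Creb1 by 0.25 ± 0.03 (length-corrected 0.05, not called). Rps6ka1, a kinase gene downstream of ERK, fell by 0.44 on the log2 scale. Srf itself, picked for mention after its value was seen, was at 108 ± 7.73 CPM with rapamycin and 110.5 ± 3.25 CPM without (edgeR adjusted p = 0.642). Of 37 other immediate early and early response genes, 35 were tested, 17 rose and 6 fell, with a median of 0.15. With the length correction 15 rose and 6 fell (median 0.12), and on log2(TPM + 1) 16 rose and 0 fell, a scale on which only 9.63% of all genes tested fell. The kinase gene Pim1 rose by 0.94 ± 0.03, Tagap by 0.64 ± 0.04, the antiproliferative gene Btg2 by 0.27 ± 0.03 and Klf6 by 0.27 ± 0.03 (length-corrected 0.17). Cd69, an early activation marker of T cells, was picked for mention after its value was seen and fell to 61.15 ± 2.38 CPM in rapamycin libraries, against 71.5 ± 0.613 CPM in untreated libraries (log2 fold change -0.23 ± 0.06, edgeR adjusted p = 5.6e-04; not called on log2(TPM + 1)).

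The summed levels of heat shock genes, CD8 chains and myeloid, erythroid, plasma cell and memory T cell markers did not overlap between the groups. Nor, narrowly, did those of the T cell markers given above, while those of B, NK and regulatory T cell markers did overlap. In a list of 14 heat shock and stress genes that, like the members, are known to be induced when tissue is dissociated, 9 of 12 tested rose and 0 fell (24.1% and 23.3% of all genes tested). Their summed level was 11210 to 11330 CPM in rapamycin libraries and 8043 to 8089 CPM in untreated libraries. Dnajb1 rose by 0.70 ± 0.03 and Hsph1 by 0.71 ± 0.04, while Hspa1a (1.36 ± 0.03) and Hspa1b (1.26 ± 0.02) are near-identical copies whose split is uncertain. Of 11 myeloid markers 10 were lower in every rapamycin library, with a summed level of 42.5 to 45.5 CPM against 81.4 to 86.1 CPM in untreated libraries. Over all genes tested 26.8% were lower in every rapamycin library and 26.9% higher in every one. B cell markers summed to 463 to 489 CPM with rapamycin and 483 to 511 CPM without, NK cell markers to 25.5 to 30.5 CPM and 30.1 to 32.3 CPM, plasma cell markers to 50.9 to 55.6 CPM and 63.4 to 65.5 CPM, and memory T cell markers to 99.3 to 107 CPM and 127 to 135 CPM. Regulatory T cell markers summed to 43.4 to 48.5 CPM with rapamycin and 43.7 to 46.2 CPM without, CD8 chains to 88.0 to 91.0 CPM and 19.1 to 20.5 CPM, and 5 erythroid markers to 2.62 to 3.13 CPM and 7.99 to 11.3 CPM. Within several lists the markers moved in both directions: of the plasma cell markers Jchain fell (log2 fold change -3.87 ± 0.25, edgeR adjusted p = 3.4e-20), as did Sdc1 (-1.72 ± 0.50, adjusted p = 0.0033) and Xbp1 (-0.31 ± 0.07, adjusted p = 3.3e-04), and Prdm1 rose (1.07 ± 0.13, adjusted p = 6.2e-10). Of the memory T cell markers Cd44 (-1.65 ± 0.10, edgeR adjusted p = 7.3e-21), Ccl5 (-1.40 ± 0.21, adjusted p = 6.5e-08) and Itgb1 (-0.22 ± 0.06, adjusted p = 0.0014) fell. Il2rb, of the same list, rose (0.57 ± 0.09, edgeR adjusted p = 4.7e-07). Of the regulatory T cell markers Ctla4 (0.82 ± 0.22, edgeR adjusted p = 0.0016) and Ikzf2 (0.76 ± 0.20, adjusted p = 9.0e-04) rose and Tnfrsf18 fell (-0.28 ± 0.08, adjusted p = 0.0041), while Foxp3 and Il2ra were not called. Of the 7 NK cell markers 4 were lower in every rapamycin library and 2 higher in every one. Gzma (-1.84 ± 0.23, edgeR adjusted p = 6.3e-10), Klrb1c (-1.63 ± 0.40, adjusted p = 4.8e-04) and Klra8 (-1.61 ± 0.52, adjusted p = 0.0088) fell. Nkg7 rose (0.55 ± 0.19, edgeR adjusted p = 0.0152), and Klrd1 and Eomes were not called. These single markers were picked for mention after their values were seen. The part of heat shock genes and of these other cells in the change of the members was not tested.

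**Figure D5:**
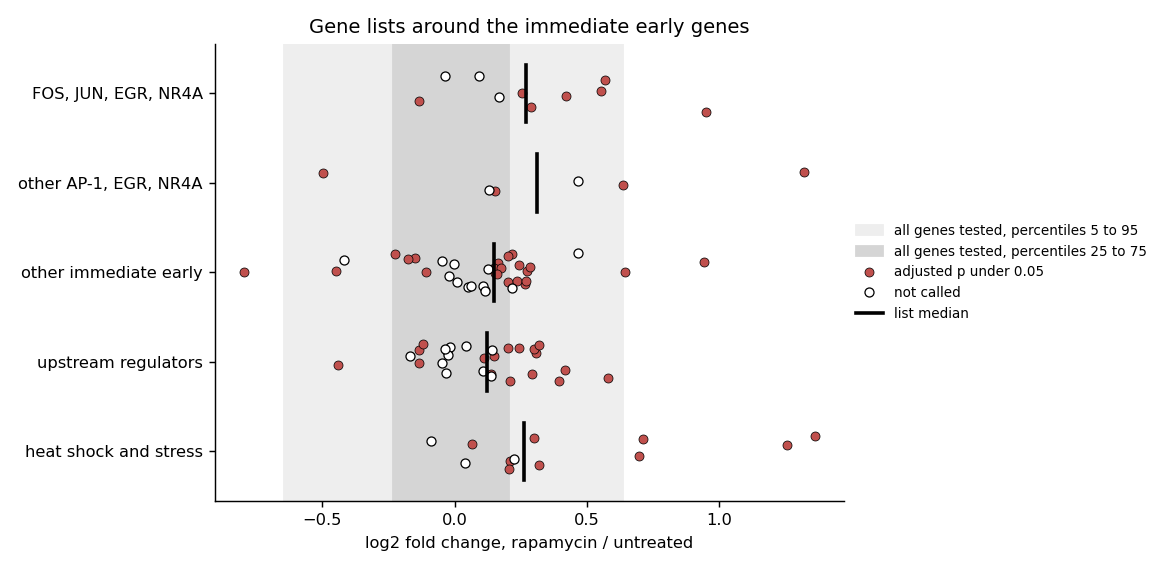
Log2 fold change (x axis, rapamycin over untreated) of each tested gene in the list of 10 members and 4 lists around it, with filled points past the threshold, open points not called and a vertical line at each list's median. Grey bands are percentiles of all genes tested, 5 to 95 (-0.64 to 0.63) and 25 to 75 (-0.23 to 0.21); 4 of the 5 lines lie between 0.12 and 0.27 and that of the relatives at 0.31.

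Among 9925 well-measured genes, those whose log2 CPM, centred on the gene's mean, lay nearest to Nr4a1 over the 6 libraries were Rbbp6, Zfp831 and Brpf3, at Euclidean distances of 0.0320, 0.0541 and 0.0576. Those nearest to Fos were Ddx6, Nfatc1 and Erbin, at 0.0279, 0.0299 and 0.0345. Their log2 fold changes were 0.56, 0.54 and 0.58 for the first set and 0.26, 0.27 and 0.26 for the second, as the measure requires. With the length correction Ddx6 and Erbin were no longer called, while Zfp831 was at 0.16 and Nfatc1 at 0.11, both still called, and Rbbp6 and Brpf3 were at 0.42 and 0.48.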

How the data were processed

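Per the labels' protocols, total RNA was extracted with RNAiso PLUS and made into libraries with a directional NEBNext Ultra II kit. Per the submitters' processing notes the authors used STAR and RSEM with mm10; versions and annotation are not given in the sources used here. The deposited tables hold expected counts, which are estimates that divide shared reads and need not be whole, and TPM, scaled by the authors for effective length and depth. Symbols and positions came from GENCODE vM21, matching 55227 of 55487 identifiers.

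Expected counts were rounded, filtered with edgeR's filterByExpr, scaled with TMM and compared with edgeR's quasi-likelihood test (robust, group only); the SE is the log2 fold change over the square root of F. The length correction is a per-library spline (5 degrees of freedom) on log2 length, used as an offset. Members and lists were chosen with earlier results of these data known. Named from each list were up to 4 genes past the threshold by smallest adjusted p. The procedure was tested on simulated data with 200 changed genes and a set dispersion of 0.005, not one estimated from these libraries. It recovered 14.9% of 1.2-fold, 68.7% of 1.5-fold and 87.9% of 2-fold changes. Of its calls 5% fell on unchanged genes. At that setting most changes of 1.2-fold were missed. Software was edgeR 4.0.16, DESeq2 1.42.0 and limma 3.58.1 in R 4.3.3, with Python 3.11.15. Counting floors cover counting error only. One marker gene is not reported here.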

Additional observations from a re-analysis of the deposited data

How the results depend on the processing

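Over 18 alternatives (RLE, upper-quartile or no composition factors, no filter or at least 2 CPM in 3 libraries, DESeq2, limma-voom, log2(TPM + 1) and log2(TPM + 0.1), the length correction, the replicate block, each library left out, and effective-length offsets, chosen after seeing the data), 6 or 7 members were called higher. The number called lower was 1, or 2, Jund and Junb, with upper-quartile factors and with no composition factors, 0 with the length correction, log2(TPM + 1) and log2(TPM + 0.1), and 1 to 2 with a library left out (2 without untreated replicate 2). Of all genes tested 5659 were called (2785 lower); effective-length offsets gave 3731 (1801 lower), and 1151 were lower with log2(TPM + 1) and 1137 with log2(TPM + 0.1). The higher calls were 50.8% of all calls, against 42.5% with upper-quartile factors, 42.8% with no composition factors, 70.3% with log2(TPM + 1) and 70.4% with log2(TPM + 0.1). Fosb turned to -0.0037 with the length correction, Junb (-0.04 as reported) to 0.036 with it, 0.067 with log2(TPM + 1) and 0.067 with log2(TPM + 0.1), and Srf (-0.03 as reported) to 0.10 with log2(TPM + 1) and 0.11 with log2(TPM + 0.1), and it ranged from -0.0663 to 0.0296 with a library left out, the highest without rapamycin replicate 2; the causes were not tested. The shared replicate numbers showed no pairing of the libraries: deviations of same-numbered libraries correlated at -0.0249, -0.0092 and -0.0311 over 9925 genes. Such deviations were mostly counting noise (median variance 1.09 times that noise with rapamycin and 1.12 times without), so this check could miss a pairing. With the replicate block 5593 genes and 7 members were called. Egr2 and Nr4a3, with 101 to 250 counts a library, are the members that depth limits most.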
